A study of Mus musculus with 9 samples.

Results

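Genes of mitosis and the spindle form a set of 40 genes here, chosen as the kinases and cyclins that start mitosis, the spindle assembly checkpoint, the machinery of anaphase, the centromere and kinetochore, the chromosomal passenger complex, the spindle motors, the proteins of cytokinesis and 2 chromosome proteins of dividing cells. They were measured in the large intestine of 9 mice at 8 wk of age, with 1 Affymetrix array per mouse. The *Eeyore* mice (n = 3) were a mixed C57BL/6 and NOD-SCID strain whose ENU-derived missense allele of *Muc2*, the gene of the main intestinal mucin, puts a proline for a serine in the C-terminal von Willebrand D domain. The *Winnie* mice (n = 3) were C57BL/6 with another ENU-derived *Muc2* missense allele, a tyrosine for a cysteine in an N-terminal D domain. The wild-type mice (n = 3) were C57BL/6. RNA was taken from the whole wall of the rinsed proximal and distal large intestine and pooled for each mouse.

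A dividing cell builds its spindle under the control of the kinases CDK1, PLK1 and the Aurora kinases, waits at the spindle assembly checkpoint until every kinetochore is attached, and then lets the anaphase-promoting complex (APC/C) mark securin and the cyclins for destruction. A midzone of bundled microtubules and a contractile ring then split the cell. In the large intestine these steps take place in the transit-amplifying cells of the lower crypt, and transcripts of the machinery are abundant only in cells that cycle, because their genes are switched on together in G2 and M phase.

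Both strains had higher transcript levels of most of these genes than wild-type mice. Of the 40 genes, 39 had a probe set annotated to that gene alone and were read from the brightest such probe set. *Ccnb1* was not analysed here. All 39 passed the filter on dim probe sets, also on the wild-type arrays alone, out of 11453 genes tested and 18193 with a probe set of their own. In limma's test, with a call at an adjusted p under 0.05, 23 of 39 were higher in *Eeyore* mice, where 14.0% of all tested genes were called higher, and 28 of 39 in *Winnie* mice, where 11.3% were. None of the 39 was called lower (1 was lower at an unadjusted p under 0.05 in each strain), while 16.6% of all tested genes were lower in *Eeyore* and 11.9% in *Winnie* mice. The median log2 fold change of the 39 genes was 0.61 in *Eeyore* and 0.75 in *Winnie* mice, against -0.04 and -0.05 over all tested genes. The genes were chosen with earlier results of these data known, so these comparisons with all tested genes are descriptions and not a test. The rises were moderate: with a change of at least 2-fold also required, 6 genes were called in *Eeyore* and 9 in *Winnie* mice. The share of all tested genes that met this requirement was not counted.

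Neither the sex of the mice nor the makeup of the tissue was held constant between the groups. All 9 mice are labelled male, but the X-inactivation RNA *Xist* had a mean signal of 83.9 in *Eeyore* and 38.4 in *Winnie* mice, against 7849 in wild-type mice, and Y-linked *Eif2s3y* had means of 1260.0 in *Eeyore* and 1291 in *Winnie* mice, against 17.6 in wild-type mice, so that sex and the *Muc2* alleles cannot be told apart. Markers of the epithelium, the tissue that holds the dividing crypt cells, were called higher for 7 of 12 genes in *Eeyore* and 4 of 12 in *Winnie* mice, at median log2 changes of 0.30 and 0.18. The summed signal of these 12 markers was 290300 to 321800 in *Eeyore*, 276100 to 286800 in *Winnie* and 231800 to 241100 in wild-type mice. Smooth muscle markers were called lower for 14 of 15 genes in each strain, the exception being *Ldb3*, and their summed signal was 74580 to 81720 in *Eeyore*, 90780 to 99280 in *Winnie* and 198100 to 204600 in wild-type mice. The summed signal of the 39 genes was 63160 to 69260 in *Eeyore*, 60790 to 77990 in *Winnie* and 44670 to 46820 in wild-type mice. None of these markers was at 0, and the part of tissue makeup in the rises was not tested. In such bulk samples more dividing cells and more RNA per dividing cell cannot be told apart.

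Immune cells can also divide, and their markers moved less uniformly. Of 7 pan-leukocyte markers 2 were called higher in *Eeyore* and 0 in *Winnie* mice (0 lower in either), with summed signals of 7884 to 13920 in *Eeyore*, 6521 to 8851 in *Winnie* and 6086 to 8138 in wild-type mice. Of 9 macrophage and granulocyte markers 5 were higher in *Eeyore* and 3 in *Winnie* mice, among them *S100a8* and *S100a9* in both, which passed the filter only through the mutant groups (wild-type means of 43.8 and 30.1), with sums of 10500 to 19570 in *Eeyore*, 10180 to 16060 in *Winnie* and 7723 to 8105 in wild-type mice. No T cell marker (3 tested) or B cell marker (6 tested) was called higher in either strain, and 1 of each was called lower in *Winnie* mice. Summed over 8 measured markers, T cell signals were 801 to 1514 in *Eeyore*, 595 to 884 in *Winnie* and 1077 to 1461 in wild-type mice, and over 7 measured markers B cell signals were 1506 to 2413 in *Eeyore*, 1038 to 1427 in *Winnie* and 1499 to 1700 in wild-type mice. Of 6 markers of crypt-base stem cells 1 was called lower in *Eeyore* and 4 in *Winnie* mice, with sums over 7 measured markers of 2432 to 2527 in *Eeyore*, 1825 to 2313 in *Winnie* and 3243 to 3704 in wild-type mice. Of 8 goblet cell genes, *Muc2* among them, 3 were lower and 1 was higher in each strain, with sums of 287400 to 322300 in *Eeyore*, 217900 to 267800 in *Winnie* and 322000 to 354800 in wild-type mice.

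The promoters of these genes share letters. The choice of the genes did not read these letters, but it drew on the class of G2 and M phase genes in which they are known. High shares were thus likely from the choice itself. Many G2 and M phase genes carry a cell cycle genes homology region (CHR), to which the MuvB complexes bind through LIN54, near CCAAT boxes, the sites of the factor NF-Y. In RefSeq windows of 300 bases (250 before to 50 after the start, build GRCm38.p6), TTTGAA or TTTAAA on either strand was found in 31 of 36 matched genes (86.1%), against 25.4% of the 17456 other protein-coding genes. CCAAT on either strand was found in 28 of 36 (77.8%), against 38.9%, and both in 27 of 36 (75%), against 10.2%. TTTAAA reads the same on both strands and was counted once, while CCAAT and its reverse ATTGG were counted separately where they overlap. *Ccna2*, *Aurkb*, *Kif20a* and *Tpx2* had no window in the table. A match is a description of letters and not of binding. Both elements stood in 13 of 19 genes called higher in both strains and in 13 of 16 other measured genes, so that the letters did not separate these.

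The 6 genes with both elements and the largest mean rise are shown from 250 bases before to 30 after the start, with the CHR elements and CCAAT boxes (ATTGG where the box lies on the other strand) in capitals.
*Ube2c*, chr2:164769679-164769958, plus strand: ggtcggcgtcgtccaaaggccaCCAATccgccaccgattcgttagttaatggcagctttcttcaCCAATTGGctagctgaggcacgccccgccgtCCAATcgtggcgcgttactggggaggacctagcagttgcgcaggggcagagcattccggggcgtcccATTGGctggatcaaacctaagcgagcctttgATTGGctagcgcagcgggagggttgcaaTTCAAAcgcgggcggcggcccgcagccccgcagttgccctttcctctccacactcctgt
*Cdk1*, chr10:69352883-69353162, minus strand: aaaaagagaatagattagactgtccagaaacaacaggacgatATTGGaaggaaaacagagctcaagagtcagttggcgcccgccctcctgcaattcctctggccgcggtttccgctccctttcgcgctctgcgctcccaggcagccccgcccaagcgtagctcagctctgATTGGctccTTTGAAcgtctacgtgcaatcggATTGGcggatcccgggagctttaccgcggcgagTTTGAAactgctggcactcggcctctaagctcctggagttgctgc
*Plk1*, chr7:122159185-122159464, plus strand: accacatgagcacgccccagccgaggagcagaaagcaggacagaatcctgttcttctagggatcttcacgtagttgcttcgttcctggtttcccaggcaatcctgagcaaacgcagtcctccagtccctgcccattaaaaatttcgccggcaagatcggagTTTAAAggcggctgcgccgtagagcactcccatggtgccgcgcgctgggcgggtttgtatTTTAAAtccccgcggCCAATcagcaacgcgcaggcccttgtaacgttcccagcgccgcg
*Ect2*, chr3:27153849-27154128, minus strand: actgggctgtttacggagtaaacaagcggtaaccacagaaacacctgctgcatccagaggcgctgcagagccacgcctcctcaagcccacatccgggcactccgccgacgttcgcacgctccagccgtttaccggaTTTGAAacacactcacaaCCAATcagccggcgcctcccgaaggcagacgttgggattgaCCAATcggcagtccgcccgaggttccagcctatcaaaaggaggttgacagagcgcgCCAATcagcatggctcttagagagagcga
*Hmmr*, chr11:40733408-40733687, minus strand: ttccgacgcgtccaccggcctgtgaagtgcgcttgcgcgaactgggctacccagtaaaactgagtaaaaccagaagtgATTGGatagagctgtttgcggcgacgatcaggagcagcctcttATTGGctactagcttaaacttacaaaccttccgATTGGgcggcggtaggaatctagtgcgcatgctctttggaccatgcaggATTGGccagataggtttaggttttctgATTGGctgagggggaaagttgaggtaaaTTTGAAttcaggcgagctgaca
*Cdc20*, chr4:118437314-118437593, minus strand: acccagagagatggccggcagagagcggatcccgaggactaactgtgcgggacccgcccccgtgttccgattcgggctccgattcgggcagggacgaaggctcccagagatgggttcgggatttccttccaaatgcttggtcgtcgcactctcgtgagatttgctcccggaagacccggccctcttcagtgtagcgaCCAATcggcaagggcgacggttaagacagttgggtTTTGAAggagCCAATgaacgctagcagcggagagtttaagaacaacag

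In *Ube2c* the CHR element began 29 bases before the start, with 6 CCAAT boxes upstream of it, of which a pair on opposite strands overlaps at 186 and 183 bases before the start, and in *Hmmr* it began at base 9 after the start, downstream of 5 boxes. *Cdk1* held 2 CHR elements, at 71 and 15 bases before the start. In *Plk1* the forms shown were TTTAAA, at 89 and 29 bases before the start, with a single CCAAT box between the nearer one and the start. *Cdc20* had its element at 18 bases before the start with a CCAAT box on each side, and in the stretch of *Ect2* shown the element lay 114 bases before the start, upstream of 3 boxes.

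Among the kinases and cyclins that drive entry into mitosis, 5 of 5 genes rose in *Eeyore* and 4 of 5 in *Winnie* mice. *Cdk1*, the catalytic partner of cyclins A and B, had signals of 2677, 3043 and 2913 in *Eeyore*, 2341, 3630 and 3020 in *Winnie* and 1412, 1403 and 1376 in wild-type mice 1, 2 and 3. Every mutant mouse lay above every wild-type mouse, and the wild-type mice differed by less than either mutant group. The rise was 2.06-fold in *Eeyore* (log2 fold change 1.04, standard error 0.14, adjusted p = 0.000393) and 2.11-fold in *Winnie* mice (1.08, standard error 0.14, adjusted p = 0.000542). The cyclin A2 gene *Ccna2* had signals of 2896, 3635 and 3217 in *Eeyore*, 2988, 4603 and 4244 in *Winnie* and 1880.0, 1755 and 1887 in wild-type mice. It rose by 0.81 (adjusted p = 0.00235) and 1.08 (adjusted p = 0.000766) on the log2 scale in *Eeyore* and *Winnie* mice, and its other probe set rose by 0.95 in *Eeyore* and 1.01 in *Winnie* mice.

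*Plk1*, the Polo-like kinase needed for centrosome maturation and spindle assembly, had signals of 667, 956 and 870.4 in *Eeyore*, 623, 916 and 741 in *Winnie* and 310.2, 431 and 402 in wild-type mice. Mouse 1 was lowest in each of the 3 groups, and the groups of mutant mice lay above wild-type without overlap. The log2 fold change was 1.12 (standard error 0.20, adjusted p = 0.00177) in *Eeyore* and 0.99 (standard error 0.20, adjusted p = 0.00533) in *Winnie* mice. *Aurka*, the centrosomal Aurora kinase, rose by 0.91 in *Eeyore* and by 0.91 in *Winnie* mice. The cyclin B2 gene *Ccnb2* rose by 0.56 in *Eeyore* mice (adjusted p = 0.0134), a call that ended without *Eeyore* mouse 2 (adjusted p = 0.0561). In *Winnie* mice *Ccnb2* had a log2 change of 0.31 (adjusted p = 0.148), and it was called higher there without *Winnie* mouse 1 (0.46, adjusted p = 0.0426).

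Of 5 genes of the spindle assembly checkpoint, which holds the APC/C inactive while kinetochores are unattached, 2 rose in *Eeyore* and 4 in *Winnie* mice. *Bub1*, a kinase that recruits checkpoint proteins to kinetochores, had signals of 658, 806 and 673 in *Eeyore*, 798, 813 and 701 in *Winnie* and 232, 367 and 314 in wild-type mice. The lowest mutant mouse had a higher signal than any wild-type mouse by a wide margin, and the rises of 2.37-fold in *Eeyore* (adjusted p = 0.000613) and 2.57-fold in *Winnie* mice (adjusted p = 0.000629) had standard errors of 0.19 on the log2 scale. In *Eeyore* mice the mean over this and a dim second probe set was lower than in wild-type mice. *Mad2l1*, which encodes the MAD2 protein that sequesters CDC20, had signals of 2663, 2291 and 2232 in *Eeyore*, 1890.0, 3622 and 2556 in *Winnie* and 1300.0, 1060.0 and 1289 in wild-type mice. *Winnie* mice 1 and 2 stood far apart, with all *Eeyore* mice between them. *Mad2l1* rose by 0.98 in *Eeyore* (adjusted p = 0.00349) and by 1.10 in *Winnie* mice (adjusted p = 0.00276).

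The checkpoint kinase gene *Ttk*, which encodes MPS1, rose by 0.90 in *Winnie* mice (adjusted p = 0.0256) and had a log2 change of 0.68 in *Eeyore* mice (adjusted p = 0.0618). Its call in *Winnie* ended without *Winnie* mouse 2 or 3 or any wild-type mouse (adjusted p = 0.0504 to 0.107), and a call in *Eeyore* appeared without *Winnie* mouse 1 or 2 (adjusted p = 0.0260 and 0.0473). *Bub3* rose by 0.38 in *Winnie* mice (adjusted p = 0.0147, but 0.0604 without wild-type mouse 1, 0.0747 with quantile normalization and 0.0526 without an intensity trend) and had a log2 change of 0.14 in *Eeyore* mice (adjusted p = 0.292). A dimmer tested probe set of *Bub3* had 0.089 and 0.095 in *Eeyore* and *Winnie* mice (adjusted p = 0.807 and 0.805). *Bub1b*, which encodes BUBR1, had 0.37 and 0.35 in *Eeyore* and *Winnie* mice (adjusted p = 0.151 and 0.199). A dimmer tested probe set of *Bub1b* was called higher in *Winnie* mice (0.58, adjusted p = 0.0171).

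The largest rise in *Eeyore* mice was in the machinery that ends mitosis. *Ube2c*, the ubiquitin-conjugating enzyme of the APC/C, had signals of 4035, 5135 and 4745 in *Eeyore*, 2901, 4256 and 3724 in *Winnie* and 1814, 1560.0 and 1419 in wild-type mice. The lowest mutant mouse was far above the highest wild-type mouse. *Ube2c* rose 2.90-fold in *Eeyore* (log2 fold change 1.54, standard error 0.15, adjusted p = 4.65e-05) and 2.25-fold in *Winnie* mice (1.17, standard error 0.15, adjusted p = 0.000496). *Cdc20*, the APC/C activator that MAD2 holds back, had signals of 4982, 4554 and 5354 in *Eeyore*, 3555, 4824 and 4791 in *Winnie* and 1932, 2104 and 3324 in wild-type mice. Wild-type mouse 3 came close to *Winnie* mouse 1 without overlap. *Cdc20* rose by 1.06 (adjusted p = 0.00169) and 0.87 (adjusted p = 0.00742) in *Eeyore* and *Winnie* mice, and a second probe set rose by 1.23 in *Eeyore* and 0.76 in *Winnie* mice.

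*Cdca3*, which encodes a trigger of mitotic entry that targets WEE1 for degradation, rose by 0.76 in *Eeyore* and 0.70 in *Winnie* mice. The genes of sister chromatid separation gave other values. Securin (*Pttg1*), the inhibitor of separase, had signals of 8128, 8972 and 8467 in *Eeyore*, 8379, 7687 and 8432 in *Winnie* and 9904, 10410.0 and 8740.0 in wild-type mice. All *Winnie* mice lay below all wild-type mice, while *Eeyore* mouse 2 lay above wild-type mouse 3. Its log2 fold change was -0.18 (adjusted p = 0.150) in *Eeyore* and -0.24 (adjusted p = 0.0748) in *Winnie* mice, but 0.14 in *Eeyore* and 0.17 in *Winnie* mice with each array centred on its median, and it was called lower in both strains with quantile normalization (-0.31, adjusted p = 0.0206, and -0.37, adjusted p = 0.0118). *Pttg1* was called lower in *Winnie* mice without wild-type mouse 3 (-0.32, adjusted p = 0.0380). Separase itself (*Espl1*) had 0.18 and 0.17 in *Eeyore* and *Winnie* mice (adjusted p = 0.555 and 0.602). *Pttg1* and *Espl1* were thus not called in either strain under the deposited scaling with all mice.

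**Figure D1:**
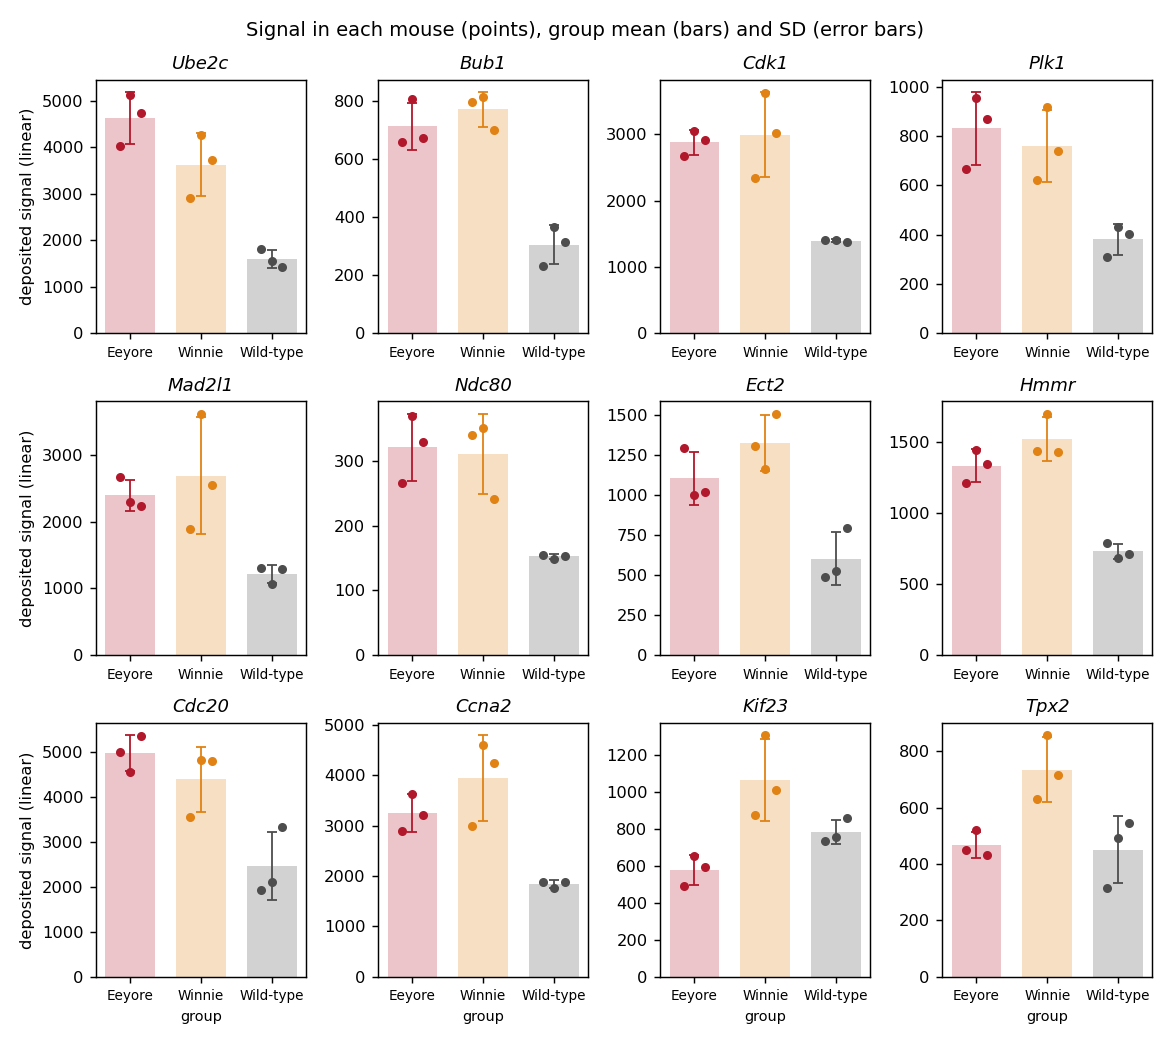
Deposited signal (linear scale, vertical axis) of 12 genes in each *Eeyore*, *Winnie* and wild-type mouse (points), with the group mean (bars) and SD (error bars, n = 3 mice). For the first 10 genes all mutant mice lie above all wild-type mice, whereas the *Eeyore* mice lie lowest for *Kif23* and overlap wild-type for *Tpx2*.

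At the centromere and kinetochore, where chromosomes meet spindle microtubules, 2 of 5 genes rose in *Eeyore* and 3 of 5 in *Winnie* mice. *Ndc80*, the microtubule-binding subunit of the outer kinetochore, had signals of 267, 369.9 and 329.5 in *Eeyore*, 341, 352 and 241 in *Winnie* and 155, 149 and 154 in wild-type mice. The wild-type mice were nearly equal and *Winnie* mouse 3 was the lowest mutant mouse. *Ndc80* rose 2.09-fold in *Eeyore* (adjusted p = 0.00471) and 2.01-fold in *Winnie* mice (adjusted p = 0.00889). *Cenpa*, the histone H3 variant of centromeres, rose by 0.80 and 0.82 in *Eeyore* and *Winnie* mice. Its other tested probe set had -0.64 and -0.78 (adjusted p = 0.365 and 0.293), and the mean over its probe sets was not called (adjusted p = 0.694 and 0.926). The kinetochore motor *Cenpe* rose by 0.82 in *Winnie* mice (adjusted p = 0.0117) and had 0.40 in *Eeyore* mice (adjusted p = 0.138). A dimmer tested probe set of *Cenpe* had 0.05 in *Winnie* mice (adjusted p = 0.91). In *Eeyore* mice it had -0.29 (adjusted p = 0.413), with all *Eeyore* mice below all wild-type mice. *Nuf2*, the partner of NDC80, had 0.42 (adjusted p = 0.174) and 0.57 (adjusted p = 0.0892), and was called in *Winnie* without *Winnie* mouse 1 (adjusted p = 0.0456). The large kinetochore protein gene *Cenpf* had 0.03 (adjusted p = 0.893) and 0.36 (adjusted p = 0.0993) in *Eeyore* and *Winnie* mice.

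The chromosomal passenger complex corrects faulty attachments and later acts at the midzone. Its survivin subunit (*Birc5*) rose by 0.85 in *Eeyore* and 0.88 in *Winnie* mice (adjusted p = 0.00116 and 0.00158), and its borealin subunit (*Cdca8*) by 0.70 and 0.94. Both other probe sets of *Cdca8* were also called higher in both strains. The kinase subunit *Aurkb* rose by 0.70 in *Eeyore* mice (adjusted p = 0.0211), a call that ended without *Eeyore* mouse 1 or 2 or wild-type mouse 2 or 3 (adjusted p = 0.0545 to 0.0813). In *Winnie* mice *Aurkb* had a log2 change of 0.55 (adjusted p = 0.0706, but 0.0436 without wild-type mouse 1).

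Motors and microtubule proteins of the spindle were called higher for 4 of 8 genes in *Eeyore* and 7 of 8 in *Winnie* mice. *Hmmr*, which encodes a hyaluronan receptor that also binds spindle poles, had signals of 1209, 1440.0 and 1343 in *Eeyore*, 1436, 1700.0 and 1426 in *Winnie* and 789.7, 684 and 712 in wild-type mice. Every mutant mouse was above every wild-type mouse, and the spread within each group was small beside the difference. *Hmmr* rose by 0.87 in *Eeyore* (standard error 0.13, adjusted p = 0.000651) and 1.06 in *Winnie* mice (standard error 0.13, adjusted p = 0.000347), and 3 of its 4 other probe sets were called higher in both strains. *Nusap1*, a microtubule-bundling protein, rose by 0.68 and 0.66 in *Eeyore* and *Winnie* mice. The bipolar spindle motor *Kif11* rose by 0.88 in *Winnie* mice and had 0.44 in *Eeyore* mice (adjusted p = 0.0985), where a second probe set was called higher (0.78, adjusted p = 0.0229).

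The other motors were called less firmly. *Kif22*, a chromosome arm motor, rose by 0.55 in *Eeyore* mice (adjusted p = 0.0335) and by 0.76 in *Winnie* mice, although *Eeyore* mouse 2 lay below wild-type mouse 3 (signals of 2245 and 2314). The *Eeyore* call ended without *Eeyore* mouse 1 or 3 or wild-type mouse 1 or 2 (adjusted p = 0.0697 to 0.127). Both other tested probe sets of *Kif22* were called higher in *Eeyore* mice (0.59, adjusted p = 0.0383, and 0.87, adjusted p = 0.0163). In *Winnie* mice neither was called (0.32, adjusted p = 0.254, and 0.53, adjusted p = 0.128). X-linked *Kif4*, a motor that shapes the midzone and chromosomes, rose by 0.61 in *Eeyore* mice (adjusted p = 0.0444), but not without any *Eeyore* mouse, *Winnie* mouse 2 or 3, or wild-type mouse 1 or 2 (adjusted p = 0.0525 to 0.146). In *Winnie* mice it had 0.52 (adjusted p = 0.0919, but 0.0221 without wild-type mouse 3). The microtubule depolymerase *Kif2c* rose by 0.68 in *Winnie* mice (adjusted p = 0.0465), a call that ended without *Winnie* mouse 2 or 3 or wild-type mouse 1 or 2 (adjusted p = 0.0880 to 0.167), and had 0.43 in *Eeyore* mice (adjusted p = 0.164). *Spag5*, which encodes astrin, rose by 0.68 in *Winnie* mice (adjusted p = 0.0176, but 0.0518 to 0.0645 without those same 4 mice) and had 0.49 in *Eeyore* mice (adjusted p = 0.0560). Its other tested probe sets were not called in *Winnie* mice (0.097 and 0.857, adjusted p = 0.912 and 0.193). Nor were they called in *Eeyore* mice (-0.415 and 0.71, adjusted p = 0.568 and 0.256).

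*Tpx2*, which activates Aurora A and nucleates spindle microtubules, had 2 tested probe sets that differed in their calls. Its brightest probe set had signals of 449.7, 521 and 434 in *Eeyore*, 629.5, 857 and 718 in *Winnie* and 316, 491 and 545 in wild-type mice. The *Winnie* mice lay above all others, and the *Eeyore* mice lay within the wild-type range. This probe set rose by 0.73 in *Winnie* mice (adjusted p = 0.0294, but 0.0519 to 0.107 without *Winnie* mouse 2 or 3 or wild-type mouse 1 or 2) and had a log2 change of 0.09 in *Eeyore* mice (adjusted p = 0.788). The second tested probe set of *Tpx2* had signals of 129, 185 and 200.7 in *Eeyore*, 363, 423 and 429.9 in *Winnie* and 294, 333 and 306 in wild-type mice. All *Eeyore* mice were thus below all others there. It fell by 0.88 in *Eeyore* mice (adjusted p = 0.00993), lay lower in *Eeyore* than in *Winnie* mice (-1.26, adjusted p = 0.00773), and had 0.38 in *Winnie* mice (adjusted p = 0.230). Whether *Eeyore* and wild-type sequence match its probes alike was not tested.

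Among proteins of the midzone and cytokinesis, 3 of 6 genes rose in each strain. *Ect2*, the exchange factor that activates RhoA at the cell equator, had signals of 1293, 996 and 1018 in *Eeyore*, 1306, 1158 and 1507 in *Winnie* and 488, 522 and 789 in wild-type mice. Wild-type mouse 3 was the highest of its group and still below every mutant mouse. *Ect2* rose 1.87-fold in *Eeyore* (adjusted p = 0.00494) and 2.25-fold in *Winnie* mice (adjusted p = 0.00180). *Anln*, which encodes the ring scaffold anillin, rose by 0.75 and 1.12 in *Eeyore* and *Winnie* mice (adjusted p = 0.00275 and 0.000453). *Racgap1*, the GTPase-activating subunit of centralspindlin, rose by 0.57 in *Eeyore* and 0.50 in *Winnie* mice. Its call in *Eeyore* ended without *Eeyore* mouse 2 or wild-type mouse 3 (adjusted p = 0.0624 and 0.0605), and its call in *Winnie* ended without *Eeyore* mouse 2, *Winnie* mouse 2 or 3 or any wild-type mouse (adjusted p = 0.0529 to 0.144).

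*Kif20a*, a motor that carries the passenger complex to the midzone, had log2 changes of 0.53 (adjusted p = 0.0897) and 0.34 (adjusted p = 0.285) in *Eeyore* and *Winnie* mice. The microtubule bundler *Prc1* had 0.30 (adjusted p = 0.256) and 0.39 (adjusted p = 0.155, but 0.0375 without *Winnie* mouse 1). Its second probe set was called higher in *Eeyore* mice (0.81, adjusted p = 0.0152).

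Of the 2 chromosome proteins, the proliferation antigen gene *Mki67* had a log2 change of 0.27 in *Eeyore* mice (adjusted p = 0.128) and rose by 0.60 in *Winnie* mice (adjusted p = 0.00594). Topoisomerase II alpha (*Top2a*), which untangles sister chromatids, rose by 0.49 in *Eeyore* mice (adjusted p = 0.0252) and by 0.75 in *Winnie* mice (adjusted p = 0.00417). The call of *Top2a* in *Eeyore* ended without *Eeyore* mouse 2 or 3 or wild-type mouse 2 or 3 (adjusted p = 0.0584 to 0.0939) and with quantile normalization (adjusted p = 0.0528). On the brightest probe set both genes had every mutant mouse above every wild-type mouse. A dimmer tested probe set of *Top2a* had -0.19 in *Eeyore* (adjusted p = 0.498) and 0.50 in *Winnie* mice (adjusted p = 0.0847).

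**Figure D2:**
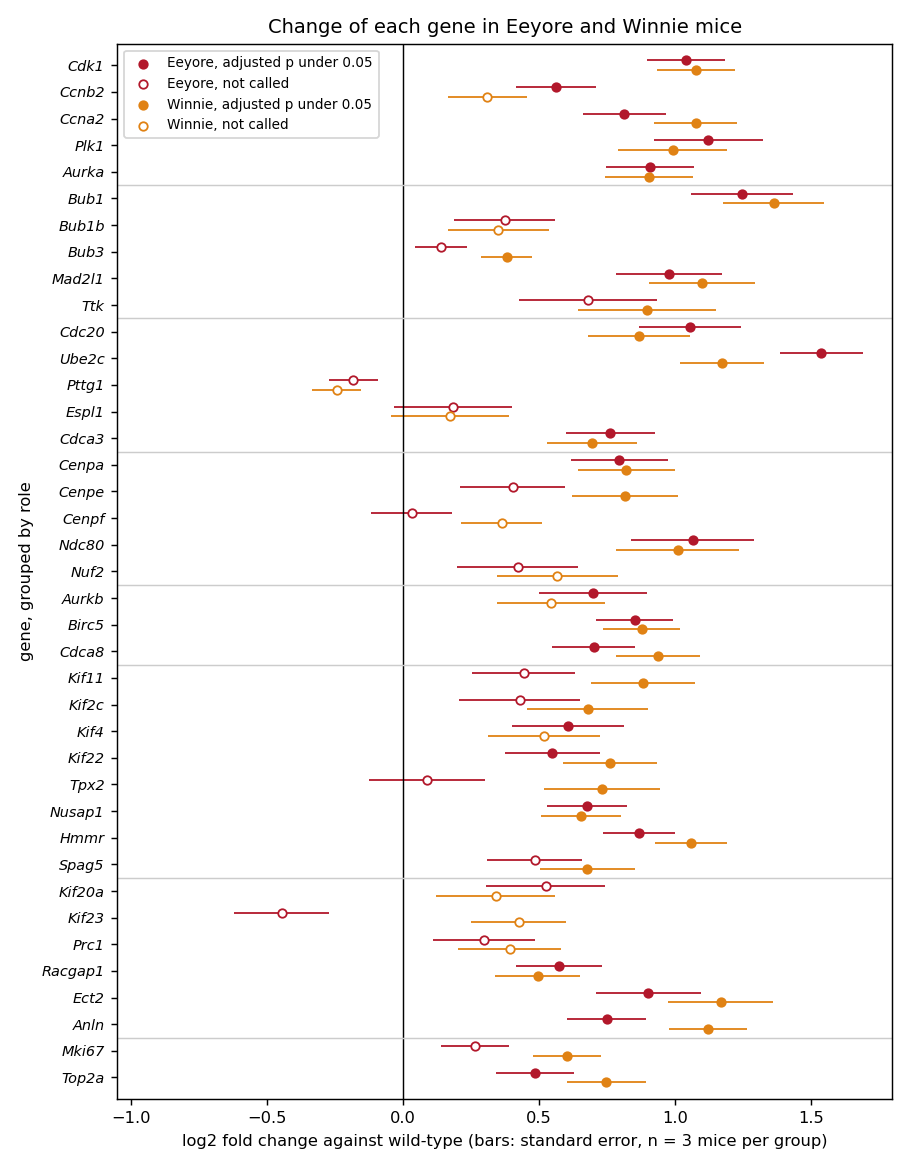
Log2 fold change against wild-type (horizontal axis) of the 39 genes in *Eeyore* and *Winnie* mice, grouped by role, with standard errors from limma (bars, n = 3 mice per group); filled points passed an adjusted p under 0.05. Most points lie right of 0 in both strains, with *Ube2c* farthest right in *Eeyore* and *Bub1* in *Winnie* mice, and with *Pttg1* left of 0 in both and *Kif23* in *Eeyore* mice.

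Taken per mouse, the rises were shared by all 6 mutant animals but not equally. The median over the 39 genes of the log2 signal minus the wild-type mean was 0.62, 0.70 and 0.61 in *Eeyore* mice 1, 2 and 3, 0.49, 0.98 and 0.83 in *Winnie* mice, and -0.08, 0.01 and 0.04 in wild-type mice. *Winnie* mouse 2 was the highest of its group for 30 of 39 genes and *Winnie* mouse 1 the lowest for 31, while *Eeyore* mouse 2 was the highest of its group for 27. The median SD of log2 signals within a group was 0.15 in *Eeyore*, 0.26 in *Winnie* and 0.15 in wild-type mice. Without *Winnie* mouse 2, 3 or wild-type mouse 1 or 2 the number of genes called higher in *Winnie* was 23, and without *Winnie* mouse 1 it was 31. The number called higher in *Eeyore* was lowest, at 18, without *Eeyore* mouse 2.

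Every mutant mouse lay above every wild-type mouse for 29 of 39 genes in *Eeyore*, against 20.7% of all tested genes, and for 33 of 39 in *Winnie*, against 19.7%. Both comparisons share the 3 wild-type mice. *Ube2c*, *Bub1*, *Cdk1*, *Plk1*, *Mad2l1*, *Ndc80*, *Ect2*, *Hmmr*, *Cdc20* and *Ccna2* had the largest mean rise among the 20 genes called higher in both comparisons, a condition that 8.52% of all tested genes met. A further 3 genes were called in *Eeyore* mice alone (*Ccnb2*, *Aurkb* and *Kif4*) and 8 in *Winnie* mice alone, but for none of these did the direct comparison of the strains pass the test.

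**Figure D3:**
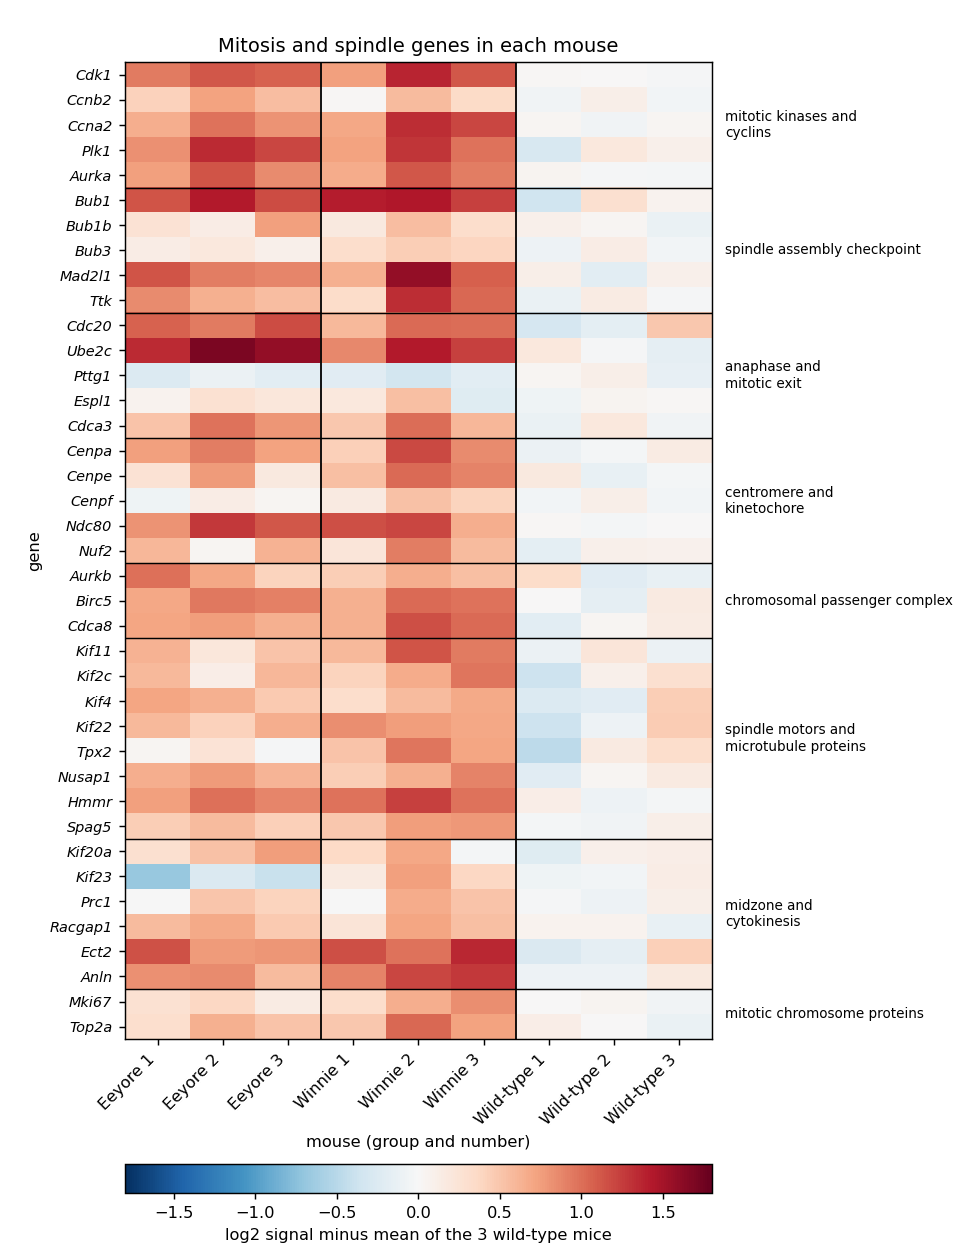
Log2 signal minus the mean of the 3 wild-type mice (colour scale, red higher) for 39 genes (rows, grouped by role) in each mouse (columns). Red prevails in all 6 mutant columns, deepest in *Winnie* mouse 2 and palest in *Winnie* mouse 1, while *Pttg1* is pale blue in both strains and *Kif23* blue in the *Eeyore* mice alone.

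Compared directly, the strains differed at an adjusted p under 0.05 in 1 of 39 genes. *Kif23*, the motor subunit of centralspindlin, had signals of 489, 652 and 593 in *Eeyore*, 875, 1309 and 1011 in *Winnie* and 738, 756 and 858 in wild-type mice. The groups did not overlap: *Eeyore* mice lay lowest and *Winnie* mice highest. *Kif23* was 1.83-fold lower in *Eeyore* than in *Winnie* mice (log2 difference -0.87, standard error 0.17, adjusted p = 0.0212), while neither strain passed against wild-type (-0.45, adjusted p = 0.0736, in *Eeyore* and 0.43, adjusted p = 0.102, in *Winnie* mice). The call ended without *Winnie* mouse 2 or 3 (adjusted p = 0.0618 and 0.0760), without an intensity trend (adjusted p = 0.0692) and with only these groups in the fit (adjusted p = 0.0571), and without *Winnie* mouse 2 *Kif23* was called lower in *Eeyore* against wild-type (adjusted p = 0.0475). With median centring it was called higher in *Winnie* against wild-type (0.83, adjusted p = 0.00511). A dimmer tested probe set of *Kif23* had log2 changes of 0.46 and 1.01 in *Eeyore* and *Winnie* mice (adjusted p = 0.454 and 0.117) and overlapping groups. *Racgap1*, its partner in centralspindlin, had a log2 difference of 0.08 between *Eeyore* and *Winnie* mice (adjusted p = 0.865).

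Of all tested genes 1.29% were called higher and 1.30% lower in *Eeyore* than in *Winnie* mice. The median log2 difference over the 39 genes was -0.12, against -0.01 over all tested genes. For 6 of 39 genes every *Eeyore* mouse lay below every *Winnie* mouse, against 10.7% of all tested genes. For 0 of 39 every *Eeyore* mouse lay above, where the share of all tested genes was not counted. Apart from *Kif23*, the genes that did not overlap were *Bub3*, *Cenpf*, *Kif22*, *Tpx2* and *Anln*, whose adjusted p lay between 0.163 and 0.614. For *Kif22* this order held on the brightest probe set only. Both of its other tested probe sets had every *Eeyore* mouse above every *Winnie* mouse (log2 differences of 0.27 and 0.34, adjusted p = 0.557 and 0.534). At an unadjusted p under 0.05 the limma fit had 1 of 39 higher and 7 lower in *Eeyore* mice. The share of all tested genes at that threshold was not counted, so these counts are not read as a strain difference. Strain background and *Muc2* allele cannot be told apart in these comparisons, since only the *Eeyore* mice carry NOD-SCID background.

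A total of 88 probe sets were annotated to the 39 genes alone, of which 68 were tested and 20 were too dim. Of the 29 tested probe sets other than the brightest, from 20 genes, 22 had the sign of the brightest in *Eeyore* and 26 in *Winnie* mice. Among these 29, 11 were called higher and 1 lower (*Tpx2*) in *Eeyore*, and 9 higher and 0 lower in *Winnie* mice. Of all 22519 tested probe sets, 2747 were called higher and 3842 lower in *Eeyore*, and 2195 higher and 2639 lower in *Winnie* mice. The 20 dim probe sets had arithmetic mean signals up to 99.6, whereas the filter was set on the mean of log2 signals. They were positive in 7 cases in *Eeyore* and 9 in *Winnie* mice. Median signals of whole arrays were 88.1 to 99.5 in the 6 mutant mice and 119 to 129 in wild-type mice. A dim probe set of *Bub1* had signals of 4.64, 32.5 and 1.95 in *Eeyore*, 84.0, 129 and 118 in *Winnie* and 138, 118 and 129.8 in wild-type mice. It was thus near the bottom of the scale in the *Eeyore* mice alone, where the brightest probe set of *Bub1* had risen, and the mean over both probe sets was lower in *Eeyore* mice (-1.51, adjusted p = 0.0369). Both *Bub1* and *Tpx2* lie on chromosome 2, as do *Aurka*, *Bub1b*, *Ube2c* and *Nusap1*. The brightest probe sets of those other genes had log2 changes of 0.91, 0.37 (not called), 1.54 and 0.68 in *Eeyore* mice. The probe sequences were not analysed here, and whether the *Eeyore* genome matches the probes of these *Bub1* and *Tpx2* probe sets as the wild-type genome does was not tested.

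Some calls on the brightest probe set ended when all probe sets of a gene, dim ones included, were averaged. In both strains this ended the calls of *Aurka*, *Anln*, *Cenpa*, *Racgap1*, *Cdca3*, *Nusap1* and *Top2a*. It also turned *Bub1* in *Eeyore* mice to a call in the lower direction, and ended the calls of *Bub1*, *Bub3*, *Ttk*, *Cdc20*, *Cenpe*, *Kif2c*, *Tpx2* and *Spag5* in *Winnie* mice. The call of *Kif4* in *Eeyore* mice ended in that fit too, although *Kif4* had no other probe set to average. Without an intensity trend in the variance the calls of *Kif4*, *Kif22* and *Top2a* in *Eeyore* (adjusted p = 0.0601 to 0.0798) and of *Bub3*, *Kif2c*, *Tpx2* and *Racgap1* in *Winnie* mice (adjusted p = 0.0526 to 0.0733) ended. Without the filter the calls of *Kif4* in *Eeyore* (adjusted p = 0.0713) and of *Kif2c* and *Racgap1* in *Winnie* mice (adjusted p = 0.0683 and 0.0679) ended.

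**Figure D4:**
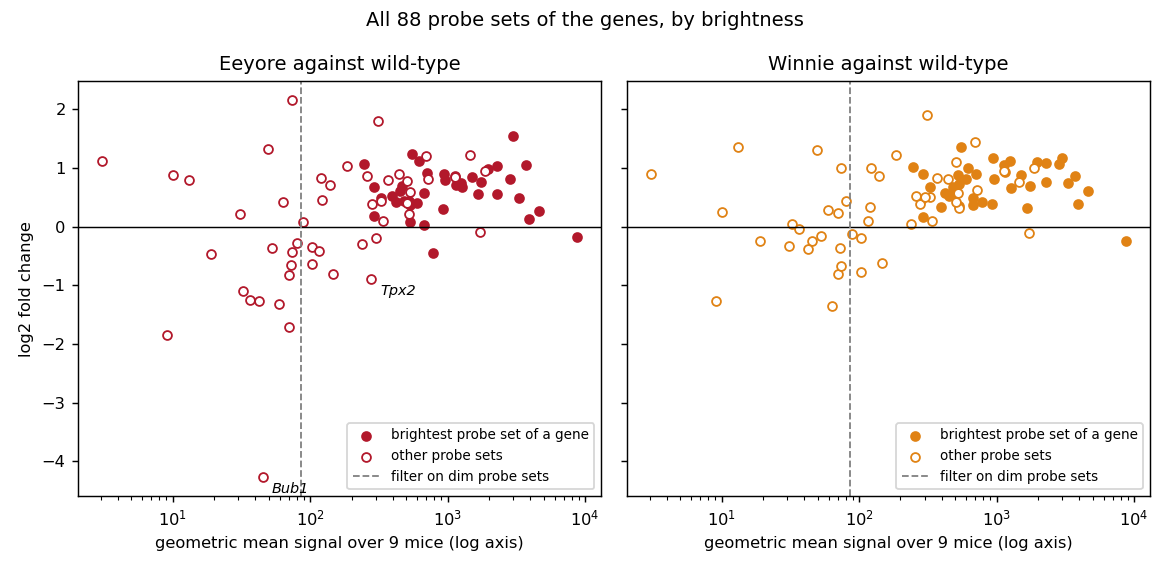
Log2 fold change against wild-type (vertical axis) of all 88 probe sets against their geometric mean signal over 9 mice (horizontal log axis), in *Eeyore* (left) and *Winnie* mice (right); the dashed line is the filter at a signal of 85.9. Bright probe sets lie mostly above 0 and dim ones on both sides, with the dim probe set of *Bub1* lowest in *Eeyore* mice.

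Of a list of 115 other genes of mitosis (cohesin, condensin, further kinetochore, centrosome and APC/C genes), 110 were tested, of which 30 rose and 3 fell in *Eeyore* and 38 rose and 2 fell in *Winnie* mice, beside 14.0% higher and 16.6% lower of all tested genes in *Eeyore* and 11.3% and 11.9% in *Winnie* mice, at median log2 changes of 0.30 and 0.43. *Gtse1*, a regulator of microtubules and p53 that passed the filter only through the mutant groups, rose by 2.41 in *Winnie* mice (adjusted p = 0.0228, but 0.0525 to 0.0674 without any *Winnie* mouse) and had 1.64 in *Eeyore* mice (adjusted p = 0.0800). *Depdc1a* rose by 1.10 (adjusted p = 0.0120, but 0.0506 without wild-type mouse 2) and 1.66, the centromere protein gene *Cenpw* by 1.22 and 1.52, and X-linked *Cenpi* by 1.38 and 1.32 in *Eeyore* and *Winnie* mice.

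Some genes of DNA replication, the step before mitosis, rose. Of 57 genes 54 were tested. Of these 16 rose and 1 fell in *Eeyore* and 19 rose and 0 fell in *Winnie* mice, at median log2 changes of 0.27 and 0.37. Of all tested genes 14.0% were higher and 16.6% lower in *Eeyore*, and 11.3% and 11.9% in *Winnie* mice. In *Winnie* mice 3 of the 54 were lower at an unadjusted p under 0.05, where the share of all tested genes was not counted. *Rrm2*, the inducible subunit of ribonucleotide reductase, had signals of 1597, 1589 and 1296 in *Eeyore*, 1450.0, 1868 and 1538 in *Winnie* and 679, 649 and 643 in wild-type mice. Its groups did not overlap, and it rose by 1.18 in *Eeyore* and 1.29 in *Winnie* mice. The origin-firing kinase *Cdc7* rose by 1.13 and 0.98 in *Eeyore* and *Winnie* mice, and its activator *Dbf4* by 0.69 and 1.19. *Rpa3*, of the single-strand binding protein RPA, rose by 0.73 and 1.04 in *Eeyore* and *Winnie* mice.

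Of 19 tested cyclins, kinases and inhibitors of the G1 phase, 2 rose and 2 fell in *Eeyore* and 2 rose and 3 fell in *Winnie* mice (medians -0.02 and -0.11). These shares are near those of all tested genes, 14.0% higher and 16.6% lower in *Eeyore* and 11.3% and 11.9% in *Winnie* mice. *Cdk6*, a kinase of D-type cyclins, had signals of 562, 629 and 337 in *Eeyore*, 479.8, 526 and 672 in *Winnie* and 1601, 1727 and 1490.0 in wild-type mice, and fell by 1.7 on the log2 scale in *Eeyore* and fell by 1.53 in *Winnie* mice. The mean over its probe sets was not called (adjusted p = 0.0826 in *Eeyore* and 0.0525 in *Winnie* mice). *Cdkn1a*, which encodes the CDK inhibitor p21, rose by 0.81 in *Eeyore* and 0.85 in *Winnie* mice. *Cdkn2b*, an inhibitor of CDK4 and CDK6, fell by 0.76 in *Eeyore* and fell by 0.70 in *Winnie* mice, a call that ended in *Winnie* without *Winnie* mouse 2 or 3 or any wild-type mouse (adjusted p = 0.0531 to 0.102) and in *Eeyore* without *Eeyore* mouse 1 or wild-type mouse 1 or 2 (adjusted p = 0.0508 to 0.0618). The cyclin E2 gene *Ccne2* rose by 1.04 in *Winnie* mice (adjusted p = 0.0226, but 0.0594 to 0.0895 without *Winnie* mouse 2 or 3 or wild-type mouse 1 or 2) and had 0.53 in *Eeyore* mice (adjusted p = 0.179, but 0.0115 without wild-type mouse 3).

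Of 20 tested transcription factors of the cell cycle, 4 rose and 2 fell in *Eeyore* and 4 rose and 1 fell in *Winnie* mice (medians 0.09 and 0.17), again beside 14.0% higher and 16.6% lower of all tested genes in *Eeyore* and 11.3% and 11.9% in *Winnie* mice. *Lin54*, which encodes the subunit that reads the CHR element, had signals of 1221, 1031 and 1186 in *Eeyore*, 1333, 1006 and 1129 in *Winnie* and 626, 556 and 728 in wild-type mice, and rose by 0.85 in *Eeyore* and 0.86 in *Winnie* mice. The mean over its probe sets was not called (0.19 in each, adjusted p = 0.527 and 0.533). *E2f2* rose by 1.17 in *Eeyore* and 0.85 in *Winnie* mice (adjusted p = 0.0230, but 0.0517 to 0.0868 without *Winnie* mouse 2 or 3 or wild-type mouse 2 or 3). *Tfdp2*, a partner of E2F proteins, fell by 0.99 in *Eeyore* and fell by 0.90 in *Winnie* mice, a call that ended in *Winnie* without *Winnie* mouse 1 or 2 or wild-type mouse 1 or 2 (adjusted p = 0.05 to 0.0974) and in *Eeyore* without wild-type mouse 1 (adjusted p = 0.0539). *Mycn* fell by 1.86 in *Eeyore* mice (adjusted p = 0.0263, but 0.0659 to 0.0908 without *Eeyore* mouse 2 or 3 or wild-type mouse 2), where its mean signal was a dim 51.4, against 178 in wild-type mice. *Foxm1* and *Mybl2*, named after their values were seen because their products bind MuvB complexes at CHR elements, had log2 changes of -0.05 and 0.29 in *Eeyore* and 0.18 and 0.27 in *Winnie* mice, none of which passed (adjusted p = 0.605 to 0.906).

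**Figure D5:**
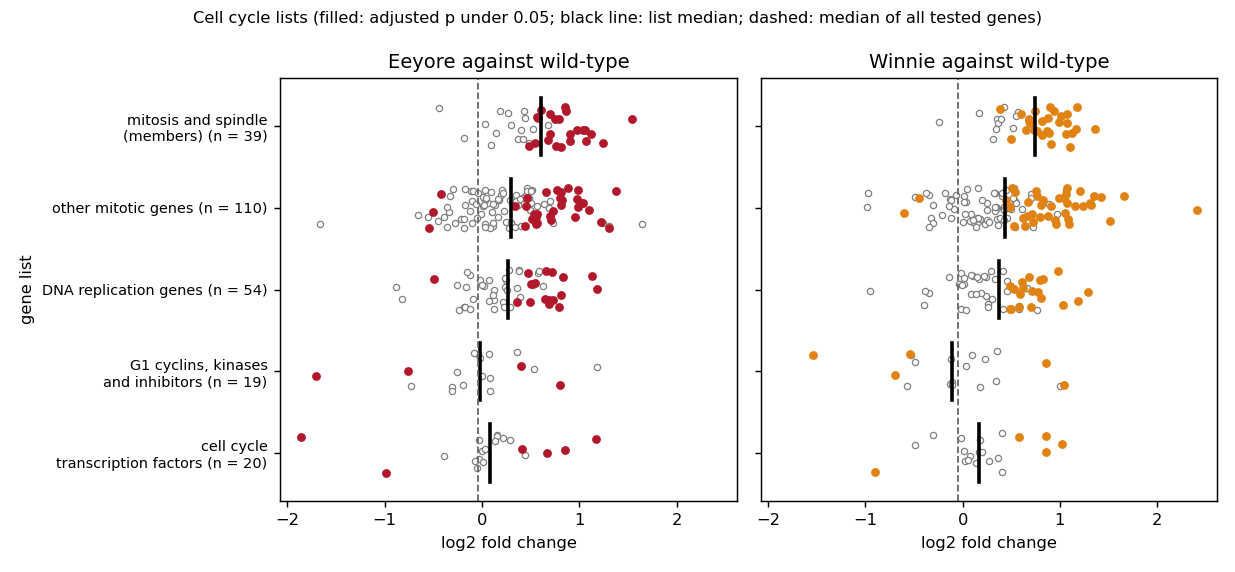
Log2 fold change against wild-type (horizontal axis) of each tested gene of the 39 and of 4 further lists in *Eeyore* (left) and *Winnie* mice (right); filled points passed an adjusted p under 0.05, black lines are list medians and the dashed line is the median of all tested genes. The medians of the 39 genes (0.61 and 0.75) lie farthest right, those of the G1 list (-0.02 and -0.11) close to the dashed line.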

How the data were processed

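Total RNA from 9 mice was hybridised to Affymetrix Mouse Genome 430 2.0 arrays. The authors deposited 1 linear signal intensity per probe set and array, scaled to a 2% trimmed mean of 500. How probes were summarised is not given in the sources used here. Group means of the log2 intensities were fitted with limma 3.58.1 (lmFit, eBayes with an intensity trend) in R 4.3.3 over all 9 arrays. Of 45037 probe sets that are not controls, 22519 whose mean log2 signal reached the 50th percentile (6.42, or 85.9 on the linear scale) entered the test, and p-values were adjusted over them (Benjamini-Hochberg). Per the platform annotation 34945 probe sets name 1 gene, 932 several and 9160.0 none. A gene was read from its brightest probe set annotated to it alone. The precision is limited by 3 arrays per group, for which the smallest exact two-sided permutation p is 0.10.

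The members and lists were chosen with earlier results of these data known. Signals in every mouse are given for the 10 members with the largest mean rise among those called in both strains, members called between strains or called lower, and members whose probe sets differ in the direction of a call. Of each list up to 4 of the largest called changes are named. *Pttg1*, the dim probe set of *Bub1*, *Foxm1* and *Mybl2* were added after their values were seen. Alternatives were quantile normalization, median centring, other filters, a pseudocount of 32, other variance models, only the groups compared, a replicate block, leaving out each mouse, the mean over probe sets and a 2-fold threshold. The fit was tested on simulated data. Promoters are RefSeq windows of GRCm38.p6. Python 3.11.15 with matplotlib 3.10.9 drew the plots.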

Additional observations from a re-analysis of the deposited data

Results flagged for a closer look

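*Kif23*, the motor subunit of centralspindlin, was flagged because its difference between the mutant strains was itself tested and passed, with a log2 difference of -0.87 (*Eeyore* minus *Winnie*, adjusted p = 0.0212 from limma). All 3 *Eeyore* mice lay below all 3 *Winnie* mice on the brightest probe set, with wild-type mice between them. The call ended in 6 of 20 alternative settings, among them without *Winnie* mouse 2 or 3 and with the mean over probe sets. A dimmer tested probe set of *Kif23* had overlapping groups (-0.55, adjusted p = 0.60).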

How the results depend on the processing

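With quantile normalization 26 members were higher and 1 (*Pttg1*) lower in *Eeyore*, and 30 higher and 1 (*Pttg1*) lower in *Winnie* mice. With median centring 34 were higher in *Eeyore* and 37 in *Winnie* mice, and the members' medians were 0.93 in *Eeyore* and 1.16 in *Winnie* mice, while the median of all tested genes was 0.28 and 0.36, against -0.04 and -0.05 as deposited. *Pttg1* then had 0.14 in *Eeyore* and 0.17 in *Winnie* mice, and *Foxm1* 0.28 in *Eeyore* (0.24 with quantile normalization). Averaging a gene's probe sets, dim ones included, left 15 higher and 1 lower in *Eeyore* and 14 higher in *Winnie* mice (median 0.54), and turned these values round: in *Eeyore* *Bub1* (-1.51), *Bub1b* (-0.22), *Bub3* (-0.21), *Cdca3* (-0.29), *Cenpf* (-0.68), *Tpx2* (-0.38), *Nusap1* (-0.21) and *Top2a* (-0.52), and in *Winnie* *Bub3* (-0.20), *Ttk* (-0.23) and *Top2a* (-0.005). Requiring a 2-fold change left 6 in *Eeyore* and 9 in *Winnie*. The shares of all tested genes called under the alternative settings of this section were not counted. The call of *Kif23* between strains (1 lower) was 0 without an intensity trend, with only the groups compared, with the mean over probe sets and with the 2-fold threshold.

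Leaving out each mouse gave 18 to 24 members higher and 0 to 1 lower in *Eeyore*, 23 to 31 higher and 0 to 1 lower in *Winnie*, and 0 to 1 lower between the strains. Signs also turned without 1 mouse for *Espl1* in *Winnie* (-0.01 to 0.37), *Cenpf* (-0.017 to 0.086) and *Tpx2* (-0.15 to 0.24) in *Eeyore*, *Foxm1* in *Winnie* (-0.012 to 0.456) and *Eeyore* (-0.24 to 0.23), and *Mybl2* in *Eeyore* (-0.022 to 0.582), none of them called. With a replicate block 23 members were higher in *Eeyore* and 28 in *Winnie*, as without it. Mouse numbers were not taken to pair mice. Over 9 same-numbered array pairs the correlation of deviations from group means ranged from -0.00821 to 0.164, with 1 above 0.1. Between *Winnie* and wild-type mice the same-numbered pairs had 0.0677, 0.0849 and 0.164, all above the differently numbered pairs (-0.0952 to 0.0199). Whether same-numbered mice were handled together was not tested. In the other settings 21 to 23 were higher in *Eeyore* and 24 to 28 in *Winnie* mice. Array medians were lower on the mutant arrays, and the part of background signal in the values of dim second probe sets was not tested. The cause of each change was not tested.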
